A study of Mus musculus with 7 samples.

Results

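Amino acid transporters were followed in RNA-seq values of gonadal adipose tissue of CD-1 mice, taken from male pups at postnatal day 21. The genes were taken by name, as every gene symbol of the deposited table that begins with Slc1a, Slc3a, Slc6a, Slc7a, Slc36a, Slc38a or Slc43a, with a single gene left out. This gave 63 symbols in 66 loci, out of 24240 symbols in 25791 named loci and 35534 loci in all. The exposed group was 4 pups whose dams received BDE-47, a brominated diphenyl ether flame retardant, at a daily dose of 0.2 mg/kg, and the control group was 3 pups of dams given the tocopherol-stripped corn oil that carried the compound. In both groups the dams were dosed from pregnancy day 8 to day 21 after birth, so the pups met the compound only through the dam, before birth and during nursing, and the pups of a group came from different litters. The table holds a combined value per group in FPKM, which is fragments scaled to transcript length and to the number of mapped reads, and no value of a single mouse. The spread between mice is therefore unknown, no test between groups was run, and every difference below is a difference between 2 group values. Library depth is unknown from the table, so no interval is given.

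Cells take up, exchange and release amino acids through membrane proteins of several unrelated families. The Slc1 family carries glutamate, aspartate and small neutral amino acids with sodium. The Slc7 family holds cationic amino acid carriers and the light chains of heteromeric transporters, which reach the membrane only when joined to a heavy chain of the Slc3 family. The Slc38 carriers are sodium-coupled and favour glutamine, alanine and other small neutral amino acids, while Slc36 carriers couple amino acids to protons and Slc43 carriers let large neutral amino acids pass by facilitated diffusion. The Slc6 family is named for neurotransmitters and also carries taurine, creatine, glycine, proline and GABA. In fat, glutamine and branched-chain amino acids are well known as carbon and nitrogen sources of adipocytes.

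Most of the transporters that were expressed differed little between exposed and control fat. A locus was kept when it exceeded 1 FPKM in at least 1 group, and a difference was counted when the 2 group values stood at least 2-fold apart. Of the 66 loci, 38 (35 symbols) passed this filter and 28 did not. Of the 38 loci, 3 were 2-fold lower or more in exposed fat (7.89%) and 0 were higher. Of all 14262 named loci past the same filter, 4.24% were lower and 1.04% were higher, so the members' share is 3 loci against a background that is also mostly lower, and nothing particular to these genes is read from it. A locus that passed the filter through control fat alone had to be lower in exposed fat, which held for 3 of the 38 loci (Slc38a4, Slc7a9 and Slc7a4), while 0 passed through exposed fat alone. At 1.5-fold, 4 of the 38 were lower (10.5%) and 0 higher, beside 8.12% and 2.83% of all named loci. The log2 ratio, BDE-47 over control throughout, had a median of -0.115 over the 38 loci, with quartiles of -0.275 and 0.06, and 0.01 over all named loci, with quartiles of -0.16 and 0.14. Of the members, 26 lay below 0 (68.4%) and 12 above, beside 47.3% of all named loci below 0. The size of the difference regardless of direction had a median of 0.19 on the log2 scale in the members and 0.15 in all named loci.

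**Figure D1:**
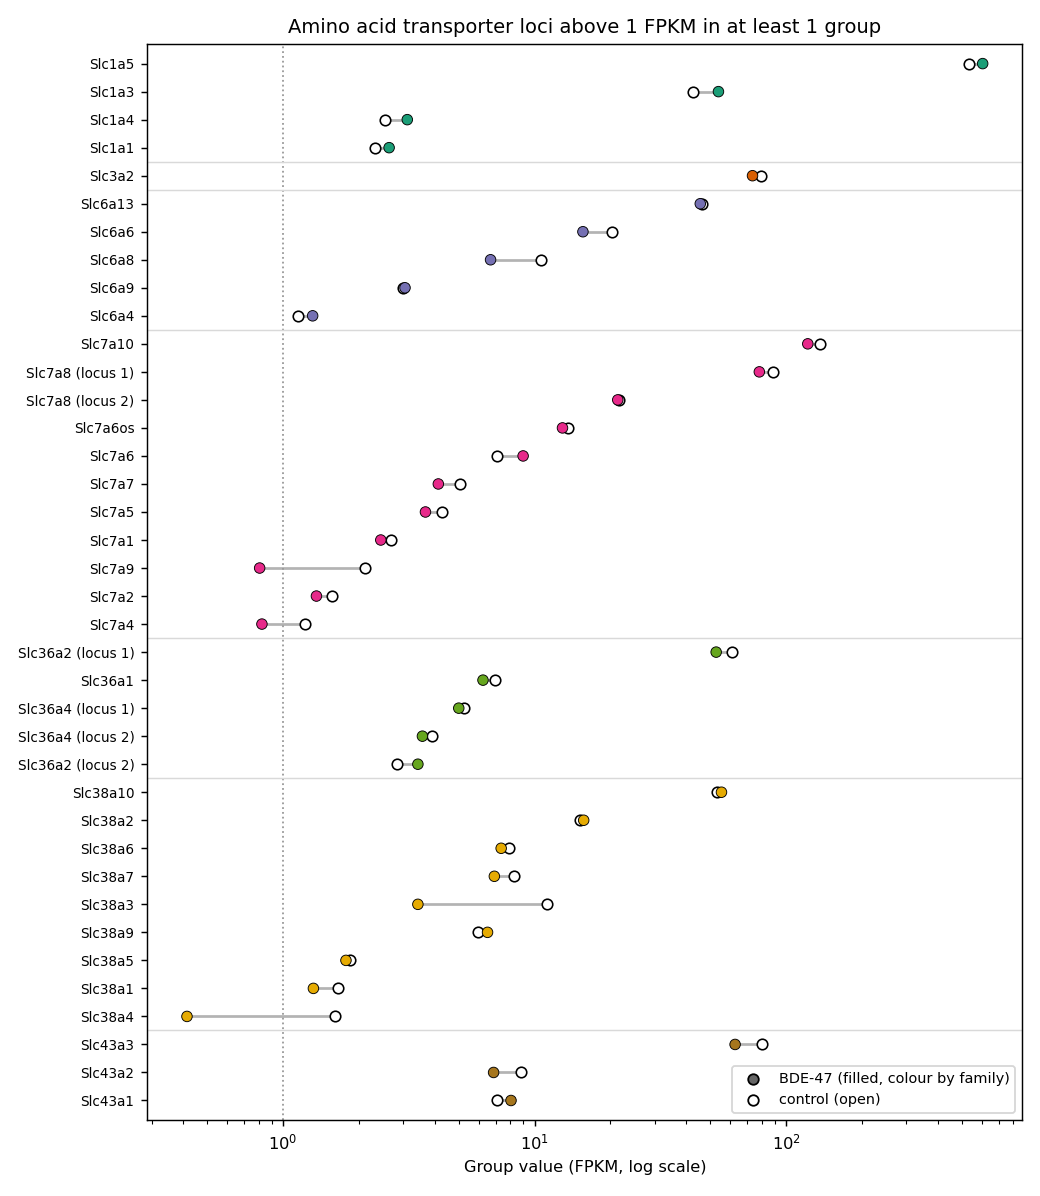
Group values of the 38 amino acid transporter loci past the filter, in FPKM on a log axis, with BDE-47 as filled points coloured by family and control as open points; loci of the same gene are numbered from the higher to the lower mean, and the dotted line marks 1 FPKM. Long bars stand at Slc38a4, Slc38a3 and Slc7a9, and most other pairs of points nearly coincide.

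The highest transporter of this tissue was Slc1a5, which encodes ASCT2, a sodium-dependent exchanger of glutamine, serine and other neutral amino acids. It was at 605 FPKM in exposed fat, against 534 FPKM in control fat, a log2 ratio of 0.18. By mean level it ranked 120 among the 14262 filtered loci. The sum over the 38 member loci was nearly the same in both groups, at 1314 FPKM in exposed and 1309 FPKM in control fat, and Slc1a5 made up 46.0% of it in exposed and 40.8% in control fat. The 10 loci with the highest means held 89.0% of the sum in exposed and 87.3% in control fat, and none of them differed 1.5-fold.

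The other Slc1 genes past the filter also had slightly higher values in exposed fat. Slc1a3, the glutamate and aspartate transporter known from astrocytes as GLAST, was at 53.8 FPKM in exposed and 42.8 FPKM in control fat, a log2 ratio of 0.33. Slc1a4, which encodes the related exchanger ASCT1, was at 3.12 and 2.55 FPKM in exposed and control fat. Slc1a1, a neuronal and epithelial glutamate transporter, was at 2.64 and 2.33 FPKM. All 4 ratios of the family lay above 0, between 0.18 and 0.33 on the log2 scale, and none reached 1.5-fold. The remaining members, Slc1a2, Slc1a6 and Slc1a7, were below the filter.

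The heavy chain Slc3a2 and the light chains Slc7a8 and Slc7a10 were among the 10 highest loci, and their values were slightly lower in exposed fat. Slc3a2, the heavy chain also known as CD98, was at 73.5 FPKM in exposed and 79.3 FPKM in control fat. Slc7a10, the light chain Asc-1 that exchanges serine, glycine, alanine and cysteine and is known as a surface marker of white adipocytes, was at 122 FPKM in exposed and 136 FPKM in control fat, a log2 ratio of -0.16. Slc7a8, the light chain LAT2 for neutral amino acids, has a pair of loci with identical coordinates in the table, which gives no strand, so their reads cannot be told apart. These were at 78.2 and 21.4 FPKM in exposed fat, and at 88.6 and 21.6 FPKM in control fat.

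The light chains at lower levels ran in both directions. Slc7a6, the exchanger y+LAT2 for cationic and neutral amino acids, was at 9.0 FPKM in exposed and 7.06 FPKM in control fat, and its log2 ratio of 0.35 was the highest of the 38 loci. Slc7a7, the related y+LAT1 of epithelia and macrophages, was at 4.14 FPKM in exposed and 5.03 FPKM in control fat. Slc7a5, the large neutral amino acid transporter LAT1 that proliferating cells raise, was low here, at 3.68 FPKM in exposed and 4.29 FPKM in control fat. Of the cationic amino acid carriers, Slc7a1 was at 2.45 and 2.69 FPKM and Slc7a2 at 1.36 and 1.56 FPKM in exposed and control fat. Slc7a4, a relative of these carriers, was at 0.824 FPKM in exposed and 1.22 FPKM in control fat, 1.48-fold lower and so short of 1.5-fold. Of the 11 Slc7 loci past the filter, 10 had a ratio below 0 and 1 above, with a median of -0.18, beside 47.3% of all named loci below 0. The 10 include Slc7a6os and both loci of Slc7a8, so they are not 10 separate transporters. Slc7a6os, at 12.9 and 13.5 FPKM in exposed and control fat, shares only its name with the family, as it is the protein-coding neighbour of Slc7a6 on the opposite strand.

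Among the 38 loci past the filter, the largest differences were in Slc38a4, Slc38a3 and Slc7a9, all lower in exposed fat. Slc38a3, which encodes SNAT3, a glutamine, histidine and asparagine transporter best known from hepatocytes, kidney and astrocytes (locus XLOC_033760, chromosome 9 of mm10, 107651155 to 107668968), was at 3.43 FPKM in exposed fat, against 11.2 FPKM in control fat, 3.27-fold lower. Slc38a4, a system A carrier of liver and placenta that is imprinted in the mouse (XLOC_011496, chromosome 15, 96994823 to 97055956), was at 0.415 FPKM in exposed fat, against 1.61 FPKM in control fat, 3.89-fold lower. Slc7a9, which encodes the light chain of the cystine and cationic amino acid exchanger of kidney and intestine (XLOC_027653, chromosome 7, 35449092 to 35466034), was at 0.807 FPKM in exposed fat, against 2.11 FPKM in control fat, 2.62-fold lower. Slc3a1, the heavy chain partner of Slc7a9, was below the filter in both groups, at 0.156 FPKM in exposed and 0.0791 FPKM in control fat. When the filter was raised to 5 FPKM, Slc38a3 was the only member left with a 2-fold difference, 1 of 24 loci (4.17%), with 0 higher, beside 2.22% of all such named loci lower and 0.672% higher. With 1 FPKM added to both groups, Slc38a3 kept a difference past 2-fold, while the log2 ratios of Slc38a4 and Slc7a9 became -0.89 and -0.79.

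Hepatocyte markers, and the summed level of epididymis markers, were lower in exposed fat as well. All 14 hepatocyte markers of the list used were at least 2-fold lower in exposed fat, with a median log2 ratio of -3.91. Their summed level was 53.5 FPKM in exposed and 705 FPKM in control fat, with no marker at 0 in either group. The list was chosen with earlier results of these data known. The paper reports Apoa1, Apob, Apoh, Fga, Fgb and Fgg of this list as lowered in these same data. The count of 14 was thus partly known in advance and is a description only. Of the 14, 10 exceeded 1 FPKM in both groups and 4 in control fat alone. Alb, the albumin gene, was at 24.6 FPKM in exposed and 362 FPKM in control fat. Of 13 epididymis markers, 8 were at least 2-fold lower and 3 higher when no filter was set, with summed levels over the 13 of 0.967 FPKM in exposed and 33.6 FPKM in control fat. The 4 that passed the filter did so through control fat alone, so the filter fixed their direction. Lcn8, Lcn9, Cst11, Defb20 and Defb21 of that list were at 0 in exposed fat, and Lcn9, Cst8 and Defb21 in control fat. The part of these cell types in the lower values of Slc38a3, Slc38a4 and Slc7a9 was not tested, and in a bulk tissue fewer cells of a type cannot be told apart from less RNA per cell. Of the other marker lists, some ran lower and some higher. Past the filter, 3 of 4 lymphocyte markers were at least 1.5-fold lower and 1 was higher. Of these 4, 1 passed through control fat alone and 1 through exposed fat alone. Of 2 skeletal muscle markers past the filter, Acta1 was lower, at 28.6 FPKM in exposed and 120 FPKM in control fat. The other passed through exposed fat alone and was higher. Of 4 Schwann cell markers 3 were at least 2-fold higher, with summed levels of 62.0 FPKM in exposed and 7.5 FPKM in control fat. Of 6 mast cell loci 3 were at least 2-fold higher, with summed levels of 16.1 FPKM in exposed and 8.74 FPKM in control fat. These 3 were Mcpt4 and both loci of Cpa3. The 2 loci of Cpa3 passed the filter through exposed fat alone, so past the filter their direction was fixed. Of 6 smooth muscle markers 3 were at least 2-fold higher, with summed levels of 365 FPKM in exposed and 327 FPKM in control fat. Tagln and Acta2, the highest of the 6, had log2 ratios of 0.03 and -0.11. The tissue label itself fitted its markers, as 9 white adipocyte loci (8 genes) summed to 43485 FPKM in exposed and 44921 FPKM in control fat and 0 of them differed 2-fold.

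**Figure D2:**
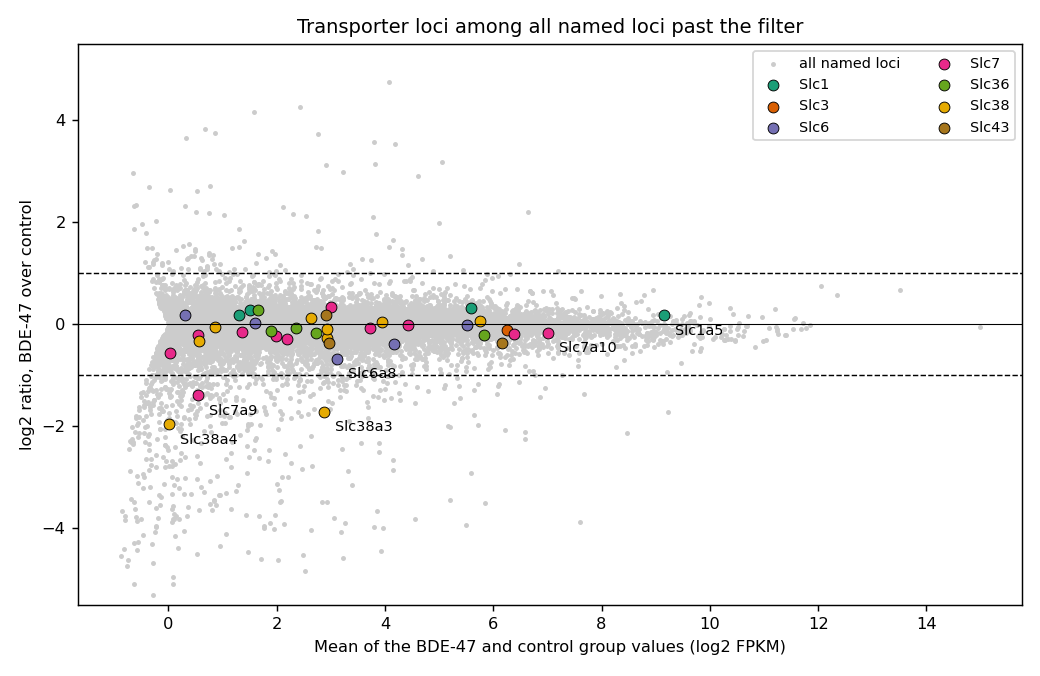
Log2 ratio (BDE-47 over control) against the log2 of the mean group value in FPKM, for named loci past the filter and above 0 in both groups (grey) and for the 38 transporter loci coloured by family; dashed lines mark 2-fold, and 11 grey loci lie outside the axis. The 3 labelled points under the lower dashed line are Slc38a3, Slc38a4 and Slc7a9.

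Of the 3 lower genes, Slc38a4 and Slc7a9 had a promoter window in the reference, with fewer CpG than most other members past the filter. They are shown beside that of Slc7a10, a high member of this fat on the same chromosome as Slc7a9, so that the difference in CpG can be seen. Sequences are RefSeq windows on GRCm38.p6, the assembly of mm10, from 250 bases before to 50 after the outermost annotated start, printed 5′ to 3′ on the gene's own strand with each CpG dinucleotide in capitals. Slc38a4 (chr15:97055907-97056206, minus strand) holds 5 CpG, Slc7a9 (chr7:35448842-35449141, plus strand) holds 6, and Slc7a10 (chr7:35186135-35186434, plus strand) holds 24.
Slc38a4: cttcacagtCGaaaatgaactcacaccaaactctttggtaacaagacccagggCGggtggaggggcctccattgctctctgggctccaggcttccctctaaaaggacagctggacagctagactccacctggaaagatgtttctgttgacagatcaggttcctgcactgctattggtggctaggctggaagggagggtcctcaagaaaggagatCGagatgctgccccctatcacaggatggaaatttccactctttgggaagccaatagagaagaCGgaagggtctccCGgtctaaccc
Slc7a9: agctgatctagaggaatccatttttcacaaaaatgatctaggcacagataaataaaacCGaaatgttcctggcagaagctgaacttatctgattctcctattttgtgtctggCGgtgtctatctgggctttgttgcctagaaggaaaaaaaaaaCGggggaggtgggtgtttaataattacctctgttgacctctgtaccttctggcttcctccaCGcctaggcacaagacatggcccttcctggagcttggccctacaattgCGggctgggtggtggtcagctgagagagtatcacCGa
Slc7a10: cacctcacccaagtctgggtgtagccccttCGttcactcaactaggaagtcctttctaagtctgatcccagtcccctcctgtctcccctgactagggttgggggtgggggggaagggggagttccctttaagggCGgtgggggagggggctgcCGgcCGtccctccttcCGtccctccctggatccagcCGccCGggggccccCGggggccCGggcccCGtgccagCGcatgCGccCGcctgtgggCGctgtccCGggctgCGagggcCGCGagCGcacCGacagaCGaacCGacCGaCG

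A window was found for 45 of the 63 symbols, and for 24 transporters past the filter the median was 18.5 CpG, against 7 CpG for 18 below it and 7 CpG over all 32851 windows of the reference. The counts of Slc38a4 and Slc7a9 are thus close to that of a typical window and low only beside the other members past the filter. Slc1a3, with 3 CpG, had a log2 ratio of 0.33, and Slc3a1, below the filter and with 7 CpG, one of 0.98. Slc38a4 and Slc7a9 passed the filter through control fat alone, so nothing is read from CpG count and ratio together.

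Several amino acid transporters are known targets of ATF4, the transcription factor of amino acid starvation, which binds C/EBP-ATF response elements. The letters TGATGNAA were searched on both strands of each window. They occurred in 3.97% of all windows and in 3 of 66 member windows (4.55%), those of Slc1a4 and Slc7a7, shown here with the match in capitals as the places where such letters can be read near a member's start. Counted from the outermost start, the first base of the match is at -4 in Slc1a4, where it reads on the opposite strand, and at -141 and -1 in Slc7a7, whose windows overlap.
Slc1a4 (chr11:20332694-20332733, minus strand): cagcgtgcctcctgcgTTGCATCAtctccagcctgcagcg
Slc7a7 (chr14:54418062-54418101, minus strand): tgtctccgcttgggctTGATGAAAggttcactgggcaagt
Slc7a7 (chr14:54417922-54417961, minus strand): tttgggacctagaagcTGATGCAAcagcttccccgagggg

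These matches are a description and not binding sites, and elements outside the windows were not searched. The log2 ratios of the genes were 0.29 for Slc1a4 and -0.28 for Slc7a7, both within 1.5-fold. The letters CAAAGTNCA, a form of the HNF4 site, occurred in 1.41% of all windows and in 1 of 66 member windows, that of Slc3a1. The E-box CACGTG was in 8 of 66 member windows (12.1%) and in 7.15% of all windows, the TATA box TATAAA in 6 (9.09%) and in 13.6% of all, and the CCAAT box in 18 (27.3%) and in 37.4% of all.

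The rest of the Slc38 family was close in both groups. Slc38a10, the highest of the family, was at 55.3 FPKM in exposed and 53.1 FPKM in control fat. Slc38a2, the system A carrier SNAT2 that cells raise when amino acids are short, was at 15.7 FPKM in exposed and 15.1 FPKM in control fat. Slc38a9, which senses arginine at the lysosome for mTORC1, was at 6.50 FPKM in exposed and 5.94 FPKM in control fat. The group values of these 3 genes nearly coincided. Slc38a6 and Slc38a7 lay between 6.92 and 8.28 FPKM over both groups, and Slc38a1 and Slc38a5 between 1.32 and 1.84 FPKM, with log2 ratios of -0.32 to -0.05. Over the 9 loci of the family past the filter the median log2 ratio was -0.1.

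Among the proton-coupled carriers, Slc36a2, which encodes PAT2 and is known as a surface marker of brown and beige adipocytes, has a pair of loci with identical coordinates. The higher was at 52.7 FPKM in exposed and 60.97 FPKM in control fat, and the lower at 3.43 FPKM in exposed and 2.83 FPKM in control fat. The locus pair thus ran in opposite directions, both within 1.5-fold. Slc36a1, the lysosomal carrier PAT1, was at 6.23 FPKM in exposed and 6.96 FPKM in control fat, and the 2 loci of Slc36a4, a high-affinity relative, lay between 3.58 and 5.24 FPKM over both groups. None of the 6 brown adipocyte markers differed 2-fold, and Ucp1, their defining gene, was below the filter in both groups.

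Of the 3 Slc43 carriers, 2 had a log2 ratio of -0.36 and 1 a ratio of 0.19. Slc43a3, assigned to purine nucleobases rather than amino acids, was at 62.7 FPKM in exposed and 80.4 FPKM in control fat. Slc43a2, the facilitated carrier LAT4, was at 6.87 FPKM in exposed and 8.82 FPKM in control fat. Slc43a1, which encodes LAT3, ran the other way, at 8.06 FPKM in exposed and 7.06 FPKM in control fat. No member of the family reached 1.5-fold.

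Among the 5 Slc6 loci past the filter, Slc6a8, the creatine transporter, had the largest difference, at 6.68 FPKM in exposed and 10.6 FPKM in control fat, 1.59-fold lower. Slc6a6, the taurine transporter, was also lower, at 15.6 FPKM in exposed and 20.3 FPKM in control fat. Slc6a13, which encodes the GABA and taurine transporter GAT2, was the highest of the family and nearly equal in both groups, at 45.6 FPKM in exposed and 46.2 FPKM in control fat. Slc6a9, the glycine transporter GlyT1, was at 3.05 and 3.01 FPKM, and Slc6a4, the serotonin transporter, at 1.31 and 1.15 FPKM in exposed and control fat. The other 15 of the family's 20 loci were below the filter, more than in any other family.

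Of the 28 loci below the filter, 25 are marked in the deposited table as not tested by the authors. The 28 included Slc1a2, Slc1a6, Slc1a7, Slc3a1, Slc6a2, Slc6a3, Slc6a5, Slc6a7, Slc6a11, Slc6a12, Slc6a14, Slc6a15, Slc6a17, Slc6a18, Slc6a19, Slc6a20a, Slc6a20b, Slc7a3, Slc7a12, Slc7a13, Slc7a14, Slc7a15, Slc36a3, Slc38a8 and Slc38a11, together with the antisense RNAs Slc6a19os and Slc36a1os. Values of the 28 reached at most 0.493 FPKM in exposed and 0.79 FPKM in control fat. Among them 3 were at least 2-fold lower in exposed fat, Slc6a18, Slc6a19 and Slc7a15. Slc6a19, the main neutral amino acid transporter of kidney and intestine, was at 0.0733 FPKM in exposed and 0.328 FPKM in control fat. Slc7a15 was at 0.199 FPKM in exposed and 0.712 FPKM in control fat. Slc6a20a and Slc6a20b are closely related copies that may share reads, and Slc6a19 lies on the coordinates of its antisense RNA, so these values are uncertain beyond their low level. Slc6a3, the dopamine transporter, and Slc38a8 were listed at 0 in control fat.

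Some transporter genes lie close together on a chromosome, with ratios that were alike in some pairs and unlike in others. Slc7a7 and Slc7a8 on chromosome 14 had log2 ratios of -0.28 and -0.18 (the higher locus of Slc7a8), and Slc6a20b and Slc6a20a on chromosome 9, both below the filter, had -0.46 and -0.84. Slc38a1, Slc38a2 and Slc38a4 lie on chromosome 15 of mm10 between 96571418 and 97055956, and their log2 ratios were -0.32, 0.05 and -1.96. Slc7a10 and Slc7a9 lie 233746 bases apart on chromosome 7 and had log2 ratios of -0.16 and -1.39. Slc6a13 and Slc6a12, the betaine and GABA transporter, lie 8931 bases apart on chromosome 6. The first was at 45.6 and 46.2 FPKM in exposed and control fat, while Slc6a12 was at 0.493 and 0.79 FPKM.

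Other genes of amino acid transport and sensing were also close in both groups. Of 72 listed symbols in 6 lists, 71 were found, in 78 loci, of which 67 passed the filter. Of these 67, 4 were at least 2-fold lower (5.97%) and 1 higher (1.49%), near the background of 4.24% and 1.04% of all named loci, and the median log2 ratio was -0.03. Among 27 loci of amino acid sensing by mTORC1 the log2 ratios lay between -0.16 and 0.24, with 0 loci 2-fold apart. The list has 29 loci in all, and of those below the filter Rragd, a Rag GTPase, was at 0.228 FPKM in exposed and 0.607 FPKM in control fat, 2.66-fold lower. Among 17 loci of the amino acid starvation response, Atf4 was at 82.1 FPKM in exposed and 78.8 FPKM in control fat, and Asns, which makes asparagine and is a classic ATF4 target, at 31.8 and 27.3 FPKM. Atf3, a stress-induced transcription factor, was the gene of that list with a 2-fold difference, at 9.38 FPKM in exposed and 22.6 FPKM in control fat.

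The other loci past the filter with a 2-fold difference lay outside the sensing list. Slc15a3, a lysosomal histidine and peptide transporter of macrophages and other immune cells, was at 4.92 FPKM in exposed and 10.4 FPKM in control fat. In the same samples 3 of 9 macrophage marker loci were at least 2-fold lower, Itgax and both loci of Trem2, with 0 at 0. At 1.5-fold 6 of the 9 were lower, while Csf1r, Mrc1 and Cd163 had log2 ratios of -0.19, -0.12 and 0.08. Summed levels were 713 FPKM in exposed and 1203 FPKM in control fat. Most of each sum came from the joined locus of Lyz1 and Lyz2, at 523 FPKM in exposed and 885 FPKM in control fat. The part of macrophages in the value of Slc15a3 was not tested. Slc25a13, the mitochondrial aspartate and glutamate carrier citrin of liver, was at 0.683 FPKM in exposed and 2.22 FPKM in control fat, and so passed the filter through control fat alone. Its paralog of other tissues, Slc25a12, named after its value was seen, was at 4.99 FPKM in exposed and 4.72 FPKM in control fat. The part of liver cells in the value of Slc25a13 was not tested. A locus of Sfxn2, a mitochondrial sideroflexin, was at 1.67 FPKM in exposed and 5.17 FPKM in control fat, and the gene's other locus at 3.01 and 3.20 FPKM. The gene Cln3, whose protein sits in lysosomes, had a locus at 2.91 FPKM in exposed and 1.42 FPKM in control fat and another at 6.96 and 8.17 FPKM, so for Sfxn2 and Cln3 the 2-fold difference held for 1 of 2 loci. By the mean of both groups, the highest of the lists were Bsg, at 315 and 365 FPKM in exposed and control fat, Lamtor2, at 155 and 154 FPKM, and Phgdh, at 133 and 161 FPKM.

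**Figure D3:**
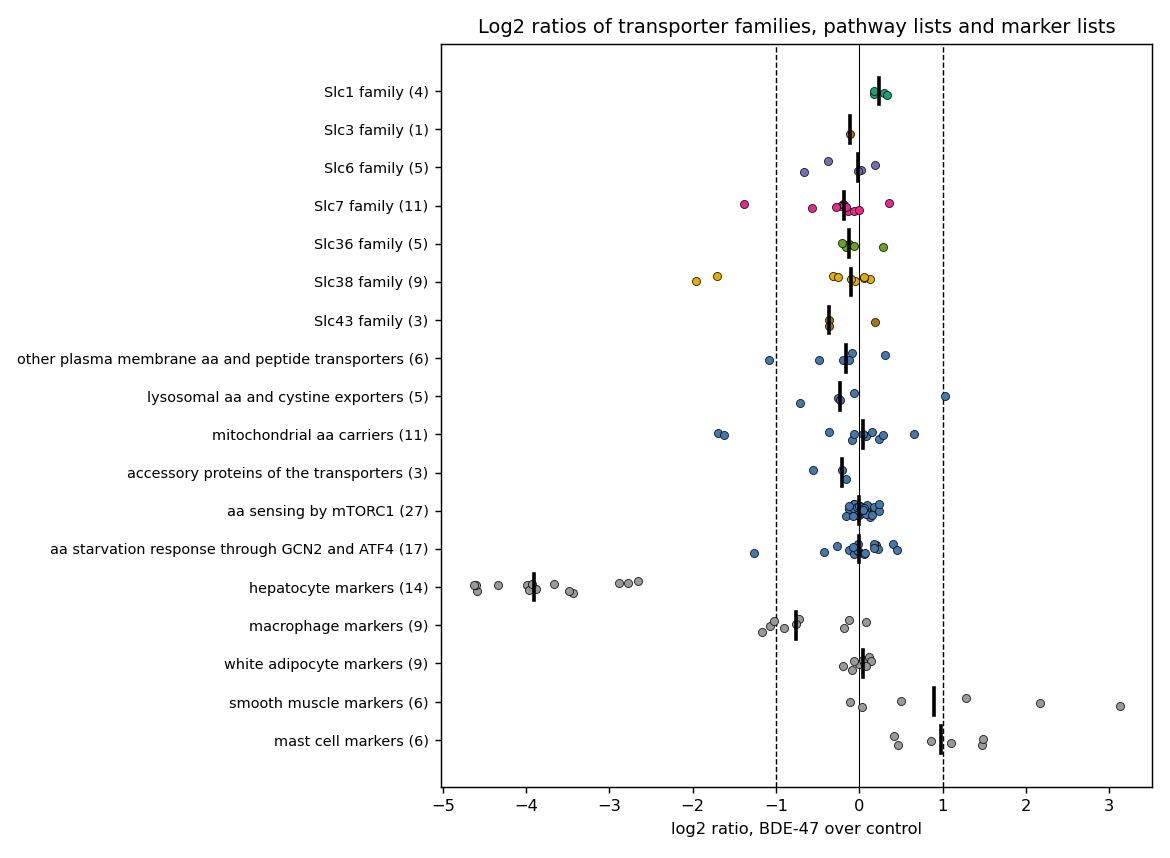
Log2 ratio, BDE-47 over control, for loci past the filter in the 7 transporter families, in 6 lists of other amino acid (aa) transport and sensing genes and in 5 marker lists; each point is a locus, thick bars are medians, dashed lines mark 2-fold, and the number of loci is in parentheses. The families and pathway lists centre near 0, whereas the 14 hepatocyte markers, 4 of which passed the filter through control alone, lie to the left of the lower dashed line.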

How the data were processed

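RNA-seq was run on poly(A) RNA of gonadal fat from 4 exposed and 3 control pups. Per the paper and the submitters' processing notes, BaseSpace served for trimming and demultiplexing, TopHat2 for alignment (mm10), Cufflinks 2.1.1 for assembly and Cuffdiff 2.1.1 for the group comparison, and a shallow control library was left out. The authors deposited log2 FPKM per group for 35534 loci, with 0 FPKM listed at -10. For annotation, strand setting and library normalization the sources used here give nothing. The table also holds the authors' own log2 ratio, q value and significance call, which were not used, and 0 columns of single mice.

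Ratios were recomputed as the difference of the deposited log2 group values, which are rounded to 2 decimals, with no pseudocount and no test. Named loci above 1 FPKM in at least 1 group were kept, following the paper. The scripts were tested on simulated data. Every member past the filter was named, with values for the 10 highest, those at least 1.5-fold apart and some of each family, and of other lists the genes at least 2-fold apart and the 3 highest. Of the members below the filter, 1 is neither named nor given a value. Exceptions, named after their values were seen, were further members, Slc25a12, Rragd, Atf4, Asns and some cell type markers. Members and lists were chosen with earlier results of these data known. All 66 loci overlapped their gene in GENCODE vM21 (GRCm38). Alternatives changed the filter, pseudocount, scaling, fold and names. Calculations ran in Python 3.11.15 (matplotlib 3.10.9, scipy 1.17.1, pandas 2.3.3, numpy 2.4.6).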

Additional observations from a re-analysis of the deposited data

How the results depend on the processing

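No paired analysis was possible because the table carries no value per mouse, and for the same reason no replicate could be left out. With no FPKM filter and values above 0 in both groups, 6 transporter loci were at least 2-fold lower and 3 higher (Slc6: 4 either way, Slc7: 3), beside 1605 lower and 1128 higher of all named loci. The medians were then 0.435 for Slc3, which turned from below to above 0 as the low Slc3a1 entered, and -0.13 for Slc6, and of the other transport and sensing genes 9 were lower and 2 higher. The totals of loci kept without a filter are not given, so these counts are not read as shares. Above 5 FPKM, 1 transporter locus was lower (Slc38: 1, Slc7: 0) and the Slc6 median was -0.38. Of the other genes 3 were then lower and 0 higher, beside 215 lower and 65 higher of all 9670 such named loci. With 1 FPKM added, 1 of the 38 transporter loci was lower (Slc38: 1, Slc7: 0). Of the 67 loci of the other genes 2 were then lower and 0 higher, beside 330 lower and 85 higher of all 14262 named loci. At 1.5-fold, 1 Slc6 locus changed, Slc6a8, which was lower. Of the 67 loci of the other genes 5 were then lower and 2 higher, beside 1158 lower and 403 higher of all 14262 named loci. Centring shifted ratios by 0.01 and changed no count of transporters or sign among the 38 loci, and every transporter locus carries 1 name, so that keeping single names left their values as they were. Low loci limit the results, since Slc38a4 and Slc7a9 were near 1 FPKM. No interval could be given.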
